A study of Mus musculus with 15 samples.

Results

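Late pregnancy was compared with the non-pregnant state in 6 of the 15 mouse livers whose RNA was sequenced, the 3 AAV8-null livers at 16 dpc (days post-coitum) and the 3 AAV8-null livers of NP (non-pregnant) mice. These 6 were taken by their labels and by the matching columns of the count table, without use of any measured value. All 6 mice were wild-type (WT) females of the strain labelled C57BL/6, which the study's methods give as C57BL/6N, that received AAV8-null, an adeno-associated virus of serotype 8 whose TBG promoter, active in hepatocytes, drives no gene, so the NP controls were injected as well. The labels give no age for single mice. The other 9 livers came from AAV8-null mice at 8 dpc and from mice at 8 dpc or 16 dpc that received AAV8-p21, a virus in which the same promoter drives the mouse cyclin-dependent kinase inhibitor p21 (Cdkn1a), with 3 mice in each group. The question was how the maternal liver transcriptome in late gestation differed from that of the NP liver, and the values at 8 dpc and in AAV8-p21 livers at 16 dpc are set beside it where they bear on a gene. Each replicate is the liver of 1 mouse.

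The liver makes most plasma proteins, clears steroids, drugs and bile salts, and buffers the supply of glucose, lipid and amino acids. In rodent pregnancy it enlarges while placental lactogens act on the prolactin receptor and growth hormone acts on its own receptor, and both receptors signal through JAK2 and the transcription factor STAT5. Estrogens and glucocorticoids also rise in late gestation and act on hepatocytes through nuclear receptors.

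The 6 libraries held 12280709 to 17615185 counts. The albumin transcript Alb alone took 9.76% to 10.8% of all counts in the NP livers and 23.5% to 27.8% at 16 dpc, and the 20 most abundant genes took 25.1% to 25.9% and 40.9% to 46.3%. Levels are given as CPM, the usual scaling of counts to a common library size, here the TMM-normalized one. TMM is the normalization of edgeR that keeps a few abundant genes from lowering the values of the rest, so the CPM of an abundant transcript is not its share of the counts. Its factors were 1.1 to 1.2 in the NP livers and 0.682 to 0.825 at 16 dpc. Livers within a group stood apart in clock genes. The log2 level of the positive-arm clock genes minus that of their outputs was 0.51, −4.48 and −4.64 in the 3 NP livers and 2.27, −1.80 and 1.87 at 16 dpc, so NP replicate 1 and 16 dpc replicate 2 each differed from the others of their group. The part of collection time in the differences was not tested. Hepatocyte markers were abundant in all 6 livers, with 1879928 to 1933275 summed counts in the NP livers and 3812571 to 5622615 at 16 dpc, of which Alb alone gave 1284487 to 1369861 and 3197457 to 4902673. Of these 10 markers 3 rose (Alb, Ahsg and Apoa1), 2 fell (Cyp2e1 and Ttr) and 5 did not pass the test. The summed counts of pancreatic, adipocyte and placental markers did not exceed 5, 2 and 1 in any of the 6 libraries. In bulk liver, fewer cells of a type and less RNA per cell cannot be told apart.

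Of the 12172 genes tested, 598 (4.91%) were DEGs. A gene was called a DEG where the adjusted p of edgeR's quasi-likelihood test was under 0.05 and the log2 fold change passed 1 in either direction. Of these, 347 (2.85%) were higher and 251 (2.06%) were lower at 16 dpc. The adjusted p-value alone was passed by 794 genes, and an unadjusted p under 0.05 by 2578. The 3 libraries at 16 dpc lay all above or all below the 3 NP libraries for 2989 genes (24.6%), among them 591 of the 598 DEGs. The median log2 fold change was 1.81 among the higher DEGs, −1.62 among the lower DEGs and −0.03 over all genes tested. Scaling by total counts alone, in place of TMM, moved that median to −0.70 and gave 184 higher and 2825 lower genes, 6.11% higher in place of 58%. All fold changes below are therefore relative to the bulk of the genes and not to the total RNA of the liver. In all 6 fits that left out 1 of the 6 libraries, 238 of the 598 DEGs were called again (153 higher and 85 lower). The total fell to 340 without NP replicate 2, 338 without NP replicate 3, 392 without 16 dpc replicate 2 and 436 (280 higher and 156 lower) without 16 dpc replicate 3, and was 604 and 592 without NP replicate 1 and 16 dpc replicate 1. Where a call named below was lost in such a fit, the library is given with the largest adjusted p.

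More than 8-fold differences were found in 71 higher and 29 lower DEGs. Of the 71 higher DEGs, 40 had a mean below 1 CPM in the NP livers and 8 had a mean of at least 100 CPM there. Of the 29 lower DEGs, 15 had a mean below 1 CPM at 16 dpc. Among abundant transcripts the rises outnumbered the falls. A mean of at least 1000 CPM was reached at 16 dpc by 37 of the higher DEGs, and in the NP livers by 8 of the lower DEGs. At the other end, 18 higher DEGs had 3 or fewer counts in every NP library and 15 lower DEGs had 3 or fewer counts in every library at 16 dpc.

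**Figure D1:**
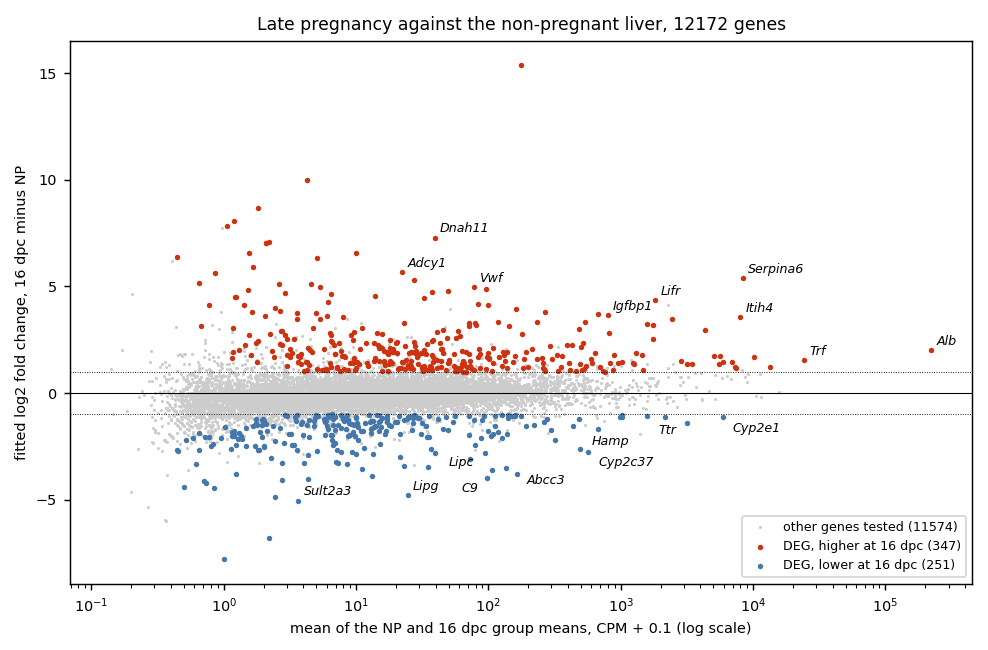
Fitted log2 fold change of 16 dpc minus NP (vertical axis) against the mean of the NP and 16 dpc group means in CPM plus 0.1 (horizontal log axis), 1 point per gene, with the 347 higher DEGs in red, the 251 lower DEGs in blue and the other tested genes in grey. Alb lies at the far right with a log2 fold change of 2.01, and the height of a gene with 0 counts in the libraries of 1 group is set by the fit alone.

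Dnah11, which encodes an axonemal dynein heavy chain of motile cilia, had the lowest adjusted p of the genes named here (ENSMUSG00000018581, chromosome 12 from 117877982 to 118199043, minus strand of GRCm38). The NP livers held 0.277, 0.487 and 0.699 CPM and the livers at 16 dpc 78.3, 113 and 41.9 CPM (log2 fold change 7.29 with SE 0.43, adjusted p = 4.07e-07 in edgeR's quasi-likelihood test, where SE is the standard error of the log2 fold change). The ranges did not overlap, the ratio of the means was 159, and the call held without each of the 6 libraries. At 8 dpc the values were 0.291, 0.119 and 0.312 CPM, none above the highest NP liver, and in AAV8-p21 livers at 16 dpc they were 17.7, 24.8 and 19.4 CPM, above every NP library and below every AAV8-null library at 16 dpc.

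Other genes rose from almost no counts. Adcy1, an adenylyl cyclase that makes cyclic AMP, was at 0.970, 0.670 and 0.909 CPM and rose to 39.6, 54.1 and 36.2 CPM (log2 fold change 5.66 with SE 0.37, adjusted p = 8.76e-07). Ccdc38, a coiled-coil protein gene, rose from 0.0693, 0.426 and 0.0699 to 24.4, 19.7 and 15.2 CPM (log2 fold change 6.59 with SE 0.49, adjusted p = 2.50e-06). The groups stood apart for both genes, and neither call was lost without any 1 library. Nptx1, which encodes a neuronal pentraxin, rose less evenly, from 0.277, 0 and 0.0699 CPM to 23.4, 2.83 and 3.20 CPM (log2 fold change 6.35 with SE 1.15, adjusted p = 0.00455), with 16 dpc replicate 1 far above the other livers of its group. Klk1b4, a kallikrein gene whose close copies make its counts uncertain (log2 fold change 5.28, adjusted p = 0.000396), and Ttyh1, a membrane chloride channel family gene (log2 fold change 4.99, adjusted p = 0.00145), also rose. Crybb3, a lens crystallin gene, had a log2 fold change of 5.11 (adjusted p = 0.0113), and its call was lost without NP replicate 2 or NP replicate 3 (adjusted p up to 0.0584). Serpina16, a serpin gene near Serpina6 on chromosome 12, had 0 CPM in each NP liver and 14.3, 9.50 and 1.42 CPM at 16 dpc, at least 42.0-fold higher against a floor of 3 counts in each NP library (adjusted p = 0.0188), and its call was lost without the same libraries (adjusted p up to 0.0579).

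Among DEGs with a mean of at least 100 CPM in the NP livers, Serpina6 had the largest rise. It encodes corticosteroid-binding globulin, the plasma carrier of glucocorticoids (ENSMUSG00000060807, chromosome 12 from 103646630 to 103657212, minus strand). Serpina6 was at 583, 256 and 340.3 CPM in the NP livers and at 27152, 15817 and 6195 CPM at 16 dpc. All 3 livers at 16 dpc lay above the NP livers, but they differed more than 4-fold from each other, with replicate 3 the lowest (log2 fold change 5.38 with SE 0.80, adjusted p = 0.00116 in edgeR). At 8 dpc it was at 419.9, 371 and 65.6 CPM. The AAV8-p21 livers at 16 dpc held 31266, 23399 and 6678 CPM, in the same range as AAV8-null livers of that stage. Slc41a2, a magnesium transporter, rose from 14.0, 1.95 and 2.66 CPM to 199.8, 155 and 200.2 CPM (log2 fold change 4.90 with SE 0.68, adjusted p = 0.000665), and NP replicate 1 was the highest NP liver.

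Vwf, the von Willebrand factor gene of endothelial cells (chromosome 6 from 125546774 to 125686679, plus strand), rose from 3.32, 5.18 and 5.87 CPM to 78.5, 285 and 88.5 CPM (log2 fold change 4.97 with SE 0.59, adjusted p = 0.000277 in edgeR). Its 16 dpc replicate 2 was the highest, and the groups did not overlap. Vwf was 1 of 14 endothelial markers tested, and the other 13 were not DEGs, with a median log2 fold change of −0.08 over the list. Pecam1 was at 11.6, 19.6 and 17.3 CPM in NP livers and 12.5, 28.2 and 18 CPM at 16 dpc, and Stab2 at 30.1, 60.0 and 55.9 and 43.5, 57.2 and 42.8 CPM, with overlapping groups. The summed counts of the 14 markers were 3548 to 7930 in the NP livers and 4344 to 8641 at 16 dpc.

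**Figure D2:**
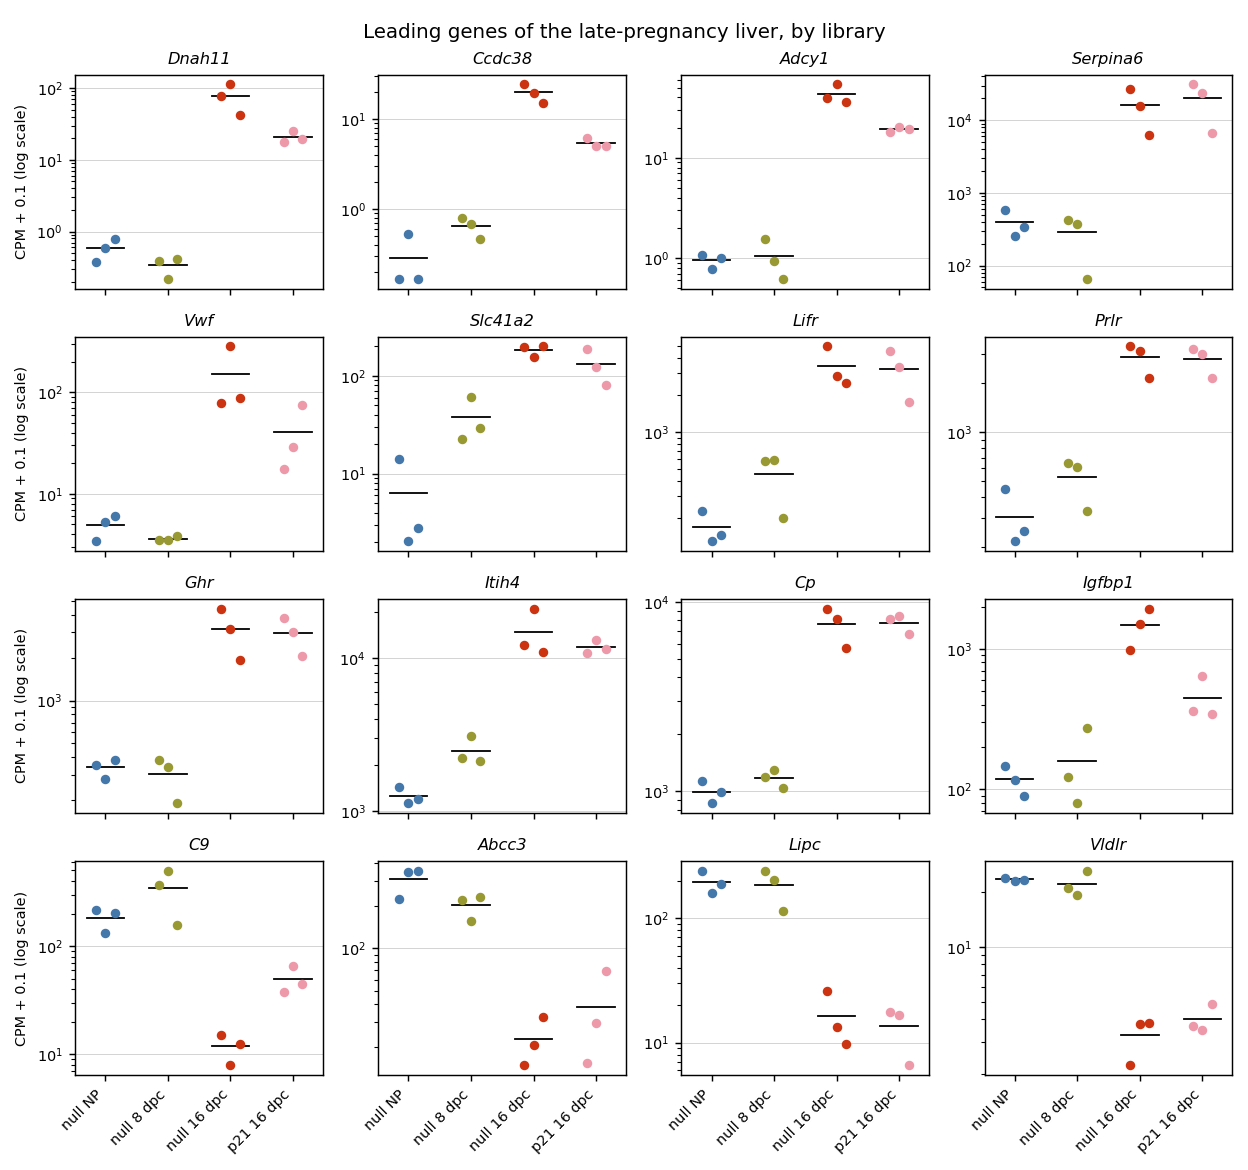
CPM plus 0.1 on a log axis for 16 genes, 1 point per liver in AAV8-null NP, 8 dpc and 16 dpc mice and AAV8-p21 mice at 16 dpc, with a black line at each group mean. The 3 AAV8-null livers at 16 dpc lie above the 3 NP livers for the first 12 genes and below them for C9, Abcc3, Lipc and Vldlr.

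The 12 largest falls among genes at a mean of 5 CPM or more in the NP livers held the lipase genes Lipg and Lipc, the complement gene C9, the transporter gene Abcc3 and the steroid- and bile acid-metabolizing genes Sult2a3, Sult2a7 and Cyp2b13. Lipg, which encodes endothelial lipase, fell from 7.90, 55.7 and 78.2 CPM to 0.535, 4.42 and 0.0890 CPM (log2 fold change −4.78 with SE 0.96, adjusted p = 0.00895 in edgeR), and NP replicate 1 was the lowest of its group. Lipc, hepatic lipase, fell from 241, 159 and 189 CPM to 26.0, 13.2 and 9.61 CPM (log2 fold change −3.59 with SE 0.44, adjusted p = 0.000351). Every liver at 16 dpc was below every NP liver for both lipases. C9, the last component of the membrane attack complex, fell from 215, 133 and 204 CPM to 15.1, 7.83 and 12.3 CPM (log2 fold change −3.97 with SE 0.43, adjusted p = 9.95e-05). The livers at 8 dpc held 371, 498 and 158 CPM of C9 and the AAV8-p21 livers at 16 dpc 37.6, 65.3 and 44.9 CPM, which all lay above the AAV8-null livers of that stage. Abcc3, which exports bile salt and glucuronide conjugates to the blood, fell from 223, 348 and 354 CPM to 14.7, 20.6 and 32.4 CPM (log2 fold change −3.77 with SE 0.47, adjusted p = 0.000364).

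Smaller transcripts fell to a similar extent. Adam11 was at 9.77, 7.80 and 6.57 CPM and fell to 0.357, 0.417 and 0.712 CPM (log2 fold change −4.0, adjusted p = 0.000548). Tcea3, a transcription elongation factor gene, fell from 70.6, 23.6 and 32.8 to 6.15, 3.67 and 2.05 CPM (log2 fold change −3.42, adjusted p = 0.00492), Ildr2 fell from 35.1, 61.5 and 95.2 to 2.05, 6.25 and 9.34 CPM (log2 fold change −3.44, adjusted p = 0.00102), and Pcp4l1 had a log2 fold change of −3.55 (adjusted p = 0.00216). The calls of these 4 genes held without each of the 6 libraries. Serpinb1a, a protease inhibitor gene, went from 53.3, 8.16 and 12.2 to 1.6, 1.33 and 2.05 CPM (log2 fold change −3.88, adjusted p = 0.0141), and its call was lost without NP replicate 1 or 16 dpc replicate 2 (adjusted p up to 0.0639).

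Promoter sequence is given for 5 genes that the results return to, 1 each for the cilia gene Dnah11, the acute-phase protein gene Itih4, the receptor gene Prlr, the kinase gene Sgk1 and the hepcidin gene Hamp. Each run is the sequence before the annotated start (RefSeq, GRCm38.p6), read 5′ to 3′ on the strand of the gene, 250 bases long except for Hamp, where the run stops at an annotated exon after 247 bases. Both strands were searched for TTCNNNGAA (the palindrome bound by STAT proteins), GNACANNNTGTNC (a glucocorticoid response element), GGTCANNNTGACC (an estrogen response element) and CACGTG (an E-box), none of which contains another. Capitals mark a match. Dnah11 is read on the minus strand from chr12:118199044-118199293 and holds no match. Itih4 is read on the plus strand from chr14:30886226-30886475 with a STAT palindrome 51 bases before the start, and Prlr on the plus strand from chr15:10223656-10223905, at 1 of its 3 starts, with one 110 bases before it. Sgk1 is read on the plus strand from chr10:21993640-21993889, at 1 of its 6 starts, with a glucocorticoid response element 188 bases and an E-box 246 bases before it. For these 2 genes the window shown was chosen because it holds a match. The other 2 windows of Prlr hold none, including the one before the first start of the gene. Before the first start of Sgk1 there is a STAT palindrome and no glucocorticoid response element, and its other 4 windows hold no match. Hamp is read on the minus strand from chr7:30944033-30944279 with a STAT palindrome 97 bases before the start.
Dnah11: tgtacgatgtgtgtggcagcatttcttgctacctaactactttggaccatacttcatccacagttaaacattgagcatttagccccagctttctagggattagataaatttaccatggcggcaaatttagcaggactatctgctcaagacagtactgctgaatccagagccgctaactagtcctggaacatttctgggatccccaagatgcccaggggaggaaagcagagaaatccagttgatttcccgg
Itih4: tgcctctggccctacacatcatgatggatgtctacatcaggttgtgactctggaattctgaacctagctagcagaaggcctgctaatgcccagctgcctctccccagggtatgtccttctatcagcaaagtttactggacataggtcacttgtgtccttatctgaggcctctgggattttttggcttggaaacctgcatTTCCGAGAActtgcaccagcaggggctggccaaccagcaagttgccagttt
Prlr: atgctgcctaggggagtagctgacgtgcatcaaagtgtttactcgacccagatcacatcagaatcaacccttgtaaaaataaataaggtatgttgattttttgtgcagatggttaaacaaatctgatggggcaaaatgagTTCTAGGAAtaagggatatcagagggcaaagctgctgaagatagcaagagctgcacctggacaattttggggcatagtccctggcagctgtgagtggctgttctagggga
Sgk1: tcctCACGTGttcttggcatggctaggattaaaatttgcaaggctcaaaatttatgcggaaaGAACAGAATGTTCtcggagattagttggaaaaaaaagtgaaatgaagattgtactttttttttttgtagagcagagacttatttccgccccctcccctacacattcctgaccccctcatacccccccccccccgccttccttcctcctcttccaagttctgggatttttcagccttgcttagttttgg
Hamp: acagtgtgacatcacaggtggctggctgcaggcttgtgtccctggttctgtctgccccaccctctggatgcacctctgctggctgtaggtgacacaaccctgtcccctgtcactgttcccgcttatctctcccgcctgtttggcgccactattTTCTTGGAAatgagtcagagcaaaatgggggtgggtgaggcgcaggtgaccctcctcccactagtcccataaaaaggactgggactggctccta

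The STAT palindrome was found before the start of a gene that rose (Itih4, log2 fold change 3.56) and of one that fell (Hamp, log2 fold change −2.61). It was in 7.02% of all 32851 promoter windows, and before 16 of the 272 higher DEGs with a sequence (5.88%), 17 of the 195 lower DEGs (8.72%) and 727 of the 9763 tested genes (7.45%). The glucocorticoid response element was before 4 of the 272 higher DEGs (1.47%), 0 of the 195 lower DEGs, 0.307% of the tested genes and 0.387% of the windows. CACGTG was in 7.35% of the higher DEGs, 8.72% of the lower DEGs and 9.91% of the tested genes. The estrogen response element was in 0 of the 9763 tested genes and 0.0639% of the windows. A match describes the letters of these windows only.

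Transcripts of plasma carrier proteins took 15.8% to 17.4% of all counts in the NP livers and 31.1% to 37.5% at 16 dpc. Of the 15 carriers tested, 7 rose and 1 fell (46.7% and 6.67%, against 2.85% and 2.06% of all genes), with a median log2 fold change of 0.91 (−0.03 over all genes), and 6 of the 8 calls were kept in all 6 fits without 1 library. With total counts 2 of the 15 were higher and 1 lower, and with the 20 most abundant genes left out, which leaves 7 carriers to test, 1 was called in each direction. Alb (ENSMUSG00000029368, chromosome 5 from 90460897 to 90476602, plus strand) was at 94876, 78249.6 and 92195 CPM in the NP livers and rose to 377255, 408470.0 and 284546 CPM (log2 fold change 2.01 with SE 0.25, adjusted p = 0.000351 in edgeR). Trf, transferrin, rose from 14572, 11209 and 11767 CPM to 45556, 41021 and 22635 CPM (log2 fold change 1.54 with SE 0.31, adjusted p = 0.00931), with replicate 3 the lowest at 16 dpc. Ahsg, fetuin-A, rose from 8402, 8081 and 7689 CPM to 21260.4, 17277 and 18301 CPM (log2 fold change 1.23 with SE 0.20, adjusted p = 0.00195). Hpx, the heme carrier hemopexin (log2 fold change 1.37, adjusted p = 0.00519), and Pzp, a protease-binding globulin known from pregnancy plasma (log2 fold change 1.44, adjusted p = 0.00218), rose as well. Fetub, fetuin-B, had a log2 fold change of 1.20 (adjusted p = 0.0293), and its call was lost without NP replicates 2 or 3 or 16 dpc replicates 1 or 2 (adjusted p up to 0.125). The carrier that fell was Ttr, transthyretin, which binds thyroxine and retinol-binding protein. It went from 6765, 3803 and 3224 CPM to 2198, 1823 and 1164 CPM (log2 fold change −1.41, adjusted p = 0.0214) and lost its call without NP replicate 1 or 16 dpc replicates 2 or 3 (adjusted p up to 0.0829).

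The 6 DEGs with the largest rise in mean CPM were Alb, Trf, Serpina6, Itih4, Ahsg and Apoa1, all secreted to plasma. Together they held 13% to 14.2% of the counts in the NP livers and 29.6% to 35.5% at 16 dpc. At 8 dpc they held 11.1% to 13.1%, and in AAV8-p21 livers at 16 dpc 27.9% to 32.2%. The 6 DEGs with the largest fall in mean CPM (Cyp2e1, Ttr, Cyp3a11, Ass1, Cyp2c37 and Rnase4) together went from 2.25% to 2.48% of the counts to 0.550% to 0.689%. Rnase4, a secreted ribonuclease gene, was at 1318, 1369 and 1516 CPM and fell to 502, 807 and 613 CPM (log2 fold change −1.13, adjusted p = 0.0256), a call that was lost without NP replicates 2 or 3 or 16 dpc replicates 1 or 3 (adjusted p up to 0.0858).

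**Figure D3:**
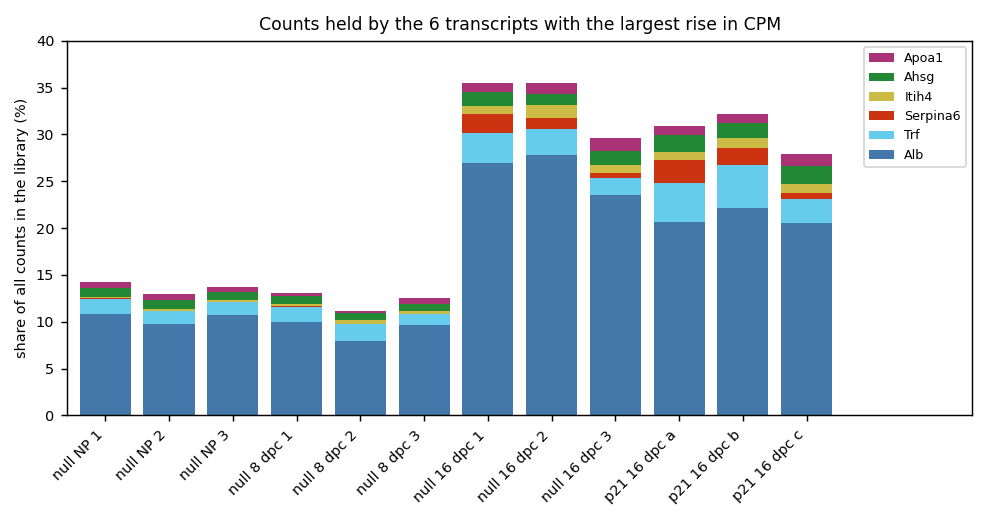
Share of all counts of a library (%) held by Alb, Trf, Serpina6, Itih4, Ahsg and Apoa1, stacked in 1 bar per liver for AAV8-null NP, 8 dpc and 16 dpc mice and AAV8-p21 mice at 16 dpc. The bars reach 13% to 14.2% in NP livers, 11.1% to 13.1% at 8 dpc, 29.6% to 35.5% at 16 dpc and 27.9% to 32.2% in AAV8-p21 livers at 16 dpc.

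Among genes of the clotting cascade those of fibrinogen, prothrombin and factor VII rose. Of 30 genes of coagulation and fibrinolysis tested, 10 rose and 0 fell (33.3% and 0% in edgeR, with 1 lower gene at an unadjusted p under 0.05 and 1 lower call by limma voom), 20 did not pass the test, 6 of the 10 calls held without each library, the median log2 fold change was 0.69, and 25 had a positive value. The 3 fibrinogen chains all rose. Fga was at 2971, 2300.1 and 2391 CPM in the NP livers and rose to 5895, 7713 and 12399 CPM (log2 fold change 1.76 with SE 0.30, adjusted p = 0.00300 in edgeR), and Fgg and Fgb rose by 1.73 and 1.47 on the log2 scale (adjusted p = 0.00245 and 0.00680). For all 3 chains replicate 3 was the highest liver at 16 dpc. F7, the factor VII of the extrinsic pathway, rose from 85.3, 76.8 and 88.5 CPM to 425, 395 and 215 CPM (log2 fold change 2.05 with SE 0.32, adjusted p = 0.00149), and there replicate 3 was the lowest. F2, prothrombin (log2 fold change 1.52, adjusted p = 0.000646), and F11 (log2 fold change 1.28, adjusted p = 0.00542) also rose. The calls of F10 (log2 fold change 1.39, adjusted p = 0.0113) and Kng1, kininogen (log2 fold change 1.38, adjusted p = 0.0132), were lost without NP replicates 2 or 3 (adjusted p up to 0.0606 and 0.0688). Those of F5 (log2 fold change 1.10, adjusted p = 0.0286) and Proz, protein Z, a cofactor in the inhibition of factor X (log2 fold change 1.02, adjusted p = 0.0159), were lost in 4 of the 6 fits without 1 library, without NP replicates 2 or 3 or 16 dpc replicate 2 and, in addition, without NP replicate 1 for F5 and 16 dpc replicate 1 for Proz (adjusted p up to 0.141 and 0.0789). With total counts, which shift all genes downward, 3 of the 30 were higher and 2 lower.

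Among complement genes Cfi and C4b rose and the terminal component C9 fell. Of 23 tested, 4 rose and 1 fell (17.4% and 4.35%), with a median log2 fold change of 0.30. Cfi, the factor that cleaves C3b, rose from 622, 455 and 557 to 1548, 1734 and 1201 CPM (log2 fold change 1.46 with SE 0.20, adjusted p = 0.000738 in edgeR). C4b, the precursor of a C3 convertase subunit, rose as well (log2 fold change 1.34, adjusted p = 0.00638). Vtn, vitronectin, which binds the terminal complex, had a log2 fold change of 1.37 (adjusted p = 0.0118), and the call was lost without NP replicate 2 or NP replicate 3 (adjusted p up to 0.0638). C9, described above, was the member that fell. Under total counts 0 were higher and 3 lower, with a list median of −0.39 against −0.70 over all genes.

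Acute-phase genes, which hepatocytes induce through STAT3 in inflammation, rose in 9 of 20 cases (45%), fell in 1 and did not pass the test in 10. The median log2 fold change was 1.15, and total counts gave 8 higher and 2 lower. The genes named below are the called ones and do not stand for the whole list. The member that fell (5%) was Hamp, the iron hormone described with iron handling. Itih4, an inter-alpha-trypsin inhibitor heavy chain (chromosome 14 from 30886476 to 30902353, plus strand), was at 1447, 1128 and 1191 CPM in the NP livers and rose to 12258, 21059.6 and 11004 CPM (log2 fold change 3.56 with SE 0.29, adjusted p = 6.64e-06 in edgeR). The livers at 8 dpc held 2209.8, 3107 and 2124 CPM of Itih4 and the AAV8-p21 livers at 16 dpc 10852, 13124 and 11383 CPM. Cp, the ferroxidase ceruloplasmin, rose from 1133, 868 and 997 CPM to 9224, 8148 and 5703 CPM (log2 fold change 2.94 with SE 0.23, adjusted p = 5.11e-06). The groups were well apart for both genes. The metallothioneins Mt2 and Mt1, which bind zinc and copper, rose by 3.35 and 2.81 on the log2 scale (adjusted p = 0.00254 and 0.00269), Mt2 from 94.8, 94.5 and 98.4 CPM to 802, 1141 and 983 CPM. Itih3 (log2 fold change 1.78, adjusted p = 0.000525) and the lipopolysaccharide-binding protein Lbp (log2 fold change 1.17, adjusted p = 0.000542) rose too. Serpina3n (log2 fold change 1.80, adjusted p = 0.0128) lost its call without 16 dpc replicate 3 (adjusted p = 0.0593), which was its highest library. Lrg1 (log2 fold change 2.15, adjusted p = 0.0307) lost it without NP replicates 2 or 3 or 16 dpc replicates 2 or 3, and Apcs, serum amyloid P (log2 fold change 1.93, adjusted p = 0.0198), without NP replicates 2 or 3 or 16 dpc replicate 3 (adjusted p up to 0.123 and 0.0923).

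The neutrophil genes S100a8 (log2 fold change 3.99, adjusted p = 0.00184), S100a9 (log2 fold change 3.77, adjusted p = 0.00931) and Retnlg (log2 fold change 3.80, adjusted p = 0.0374) also rose, but their levels were low. They were the 3 of 9 neutrophil markers that passed the minimum count, with no more than 15 counts in any NP library, so they passed it through the pregnant groups and their number is no support for a rise of the markers. S100a9 was at 1.04, 0.122 and 0.280 CPM in NP livers and 3.57, 2.42 and 13.6 CPM at 16 dpc, and at a mean of 4.47 CPM at 8 dpc. The call of Retnlg was lost without any of the 3 NP libraries or 16 dpc replicate 3 (adjusted p up to 0.229). The 9 markers summed to 9 to 29 counts per NP library and 67 to 340 at 16 dpc, with Ly6g at 0 counts in all 6. Their part in the acute-phase values was not tested. The 11 markers of Kupffer cells and macrophages held no DEG in edgeR, DESeq2 or limma voom and 0 at an unadjusted p under 0.05 (median log2 fold change −0.18, summed counts 6650 to 8072 in NP livers and 3474 to 5536 at 16 dpc).

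Transcripts of the receptors for prolactin, growth hormone and leukemia inhibitory factor rose, and those of the feedback inhibitors Cish and Socs2 were higher as well. A link between these rises was not tested. Counts are per gene, so the transcript forms of a receptor gene are not told apart. Of 17 genes of growth hormone, prolactin, estrogen and STAT5 signalling tested, 8 rose and 0 fell (47.1% and 0% in edgeR, with 1 lower at an unadjusted p under 0.05 and 1 lower call by limma voom). The median log2 fold change was 0.98, and with total counts 6 were higher and 2 lower. Prlr, the prolactin receptor (ENSMUSG00000005268, chromosome 15 from 10177238 to 10349180, plus strand), was at 449, 217 and 249 CPM in the NP livers and rose to 3331, 3133 and 2134 CPM (log2 fold change 3.23 with SE 0.34, adjusted p = 8.53e-05 in edgeR). Ghr, the growth hormone receptor, rose from 355, 283 and 383 CPM to 4407, 3151 and 1909 CPM (log2 fold change 3.21 with SE 0.35, adjusted p = 0.000113). Lifr, the receptor for leukemia inhibitory factor, rose from 228, 129.9 and 147 CPM to 4979, 2855 and 2516 CPM (log2 fold change 4.36 with SE 0.49, adjusted p = 0.000170). For each receptor the lowest liver at 16 dpc was several times the highest NP liver, and none of these calls was lost without 1 library.

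The 3 receptors also rose between the stages of pregnancy. At 8 dpc Prlr was at 649, 609 and 331 CPM, Ghr at 383, 341 and 191 CPM and Lifr at 580.3, 594 and 201 CPM. From 8 dpc to 16 dpc the log2 fold changes were 2.44 for Prlr, 3.37 for Ghr and 2.91 for Lifr (adjusted p = 0.000673, 6.75e-05 and 0.00213 in edgeR). That comparison shares the 16 dpc libraries with the comparison to NP. In it 658 genes (5.41%) were DEGs, 308 higher (2.53%) and 350 lower (2.88%) at 16 dpc. That count was 274, 248 and 1039 without 8 dpc replicates 1, 2 and 3, and 319 and 402 without 16 dpc replicates 2 and 3. AAV8-p21 livers at 16 dpc held mean levels of 2780.2, 2957 and 3237 CPM for the 3 receptors.

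Inhibitor genes that STAT5 can induce were also higher at 16 dpc. Cish was at 10.5, 4.87 and 6.92 CPM in NP livers and rose to 27.2, 26.2 and 38.4 CPM (log2 fold change 2.05 with SE 0.31, adjusted p = 0.00133 in edgeR), and Socs2 rose from 23.2, 17.2 and 10.8 to 61.3, 54.2 and 59.4 CPM (log2 fold change 1.77 with SE 0.30, adjusted p = 0.00304). Stat3, the effector of LIF and interleukin-6 signalling, rose by 1.52 on the log2 scale (adjusted p = 0.00142). Socs3, its feedback inhibitor, had a log2 fold change of 2.76 (adjusted p = 0.0165) and was at 8.11, 23.2 and 50.5 CPM at 16 dpc, with replicate 3 the highest. Its call was lost without NP replicates 2 or 3 or 16 dpc replicate 3 (adjusted p up to 0.0773). Egfr, the epidermal growth factor receptor, had a log2 fold change of 1.61 (adjusted p = 0.0412) and lost its call in 5 of 6 such fits, all but the one without 16 dpc replicate 1 (adjusted p up to 0.171). Igf1, the growth hormone target secreted by the liver, was at 516, 352 and 406 CPM in NP livers and 571, 843 and 666 CPM at 16 dpc and was not a DEG (log2 fold change 0.71, adjusted p = 0.0657).

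Of 25 hepatokines and IGF-binding proteins tested, 1 rose and 1 fell (4% in each direction in edgeR). DESeq2 called 4 higher and 1 lower and limma voom 5 and 1, and 9 were higher and 2 lower at an unadjusted p under 0.05. Igfbp1, which binds insulin-like growth factors in plasma and is repressed by insulin, rose from 147, 117 and 90.1 CPM to 981, 1499 and 1935 CPM (log2 fold change 3.64 with SE 0.45, adjusted p = 0.000365 in edgeR). At 8 dpc it was at 123, 79.8 and 273 CPM and in AAV8-p21 livers at 16 dpc at 363, 643 and 345 CPM, below the AAV8-null livers of the same stage. Lect2, a hepatokine known for impairing insulin signalling in muscle, fell from 163, 81.0 and 98.2 CPM to 41.1, 27.3 and 19.8 CPM (log2 fold change −1.96 with SE 0.39, adjusted p = 0.00931). The groups did not overlap for either gene, and both calls held without each library.

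In a joint list of glucocorticoid targets and immediate-early genes 9 of 19 rose and 1 fell (47.4% and 5.26%, median log2 fold change 1.42). With total counts 7 were higher and 2 lower. Most of the rises were immediate-early and stress genes, so the count does not describe the glucocorticoid targets alone. Sgk1, a serum- and glucocorticoid-regulated kinase (chromosome 10 from 21882184 to 21999903, plus strand), was at 12.7, 27.2 and 23.0 CPM in the NP livers and rose to 168, 214 and 263 CPM (log2 fold change 3.36 with SE 0.47, adjusted p = 0.000692 in edgeR). The Sgk1 window printed above with a glucocorticoid response element is 1 of 6 and was chosen because it holds a match, so it is no support for this rise. Hsd11b1, the enzyme that regenerates active glucocorticoid from its inert form, rose from 775, 587 and 642 CPM to 2051, 1915 and 1432 CPM (log2 fold change 1.43, adjusted p = 0.000878), and H6pd, outside the list, which supplies that enzyme with NADPH in the endoplasmic reticulum, rose from 295, 293 and 313 CPM to 1025, 759.6 and 905 CPM (log2 fold change 1.58, adjusted p = 0.00116). Tsc22d3, the glucocorticoid-induced leucine zipper gene, moved the other way, from 173, 108 and 146 CPM to 51.5, 26.9 and 21.1 CPM (log2 fold change −2.10 with SE 0.42, adjusted p = 0.00895). For each of these 4 genes the groups were apart and the call held without each library. Other glucocorticoid-linked members were not DEGs in edgeR. These included Fkbp5 (log2 fold change 0.93, adjusted p = 0.0986), Zbtb16 (0.97, adjusted p = 0.242) and Dusp1 (1.17, adjusted p = 0.249). Errfi1 (0.48, adjusted p = 0.173) and the receptor gene Nr3c1 (−0.34, adjusted p = 0.566) were not called either.

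The other rises of that list were in transcription factor and stress genes that respond within minutes to growth factors. Egr1 rose from 14.1, 9.93 and 5.73 CPM to 90.1, 36.7 and 88.6 CPM (log2 fold change 2.86, adjusted p = 0.00269 in edgeR), and Jun rose by 1.71 on the log2 scale (adjusted p = 0.00974). Fos (log2 fold change 2.56, adjusted p = 0.0101) was below 10 CPM in every liver and lost its call without NP replicate 2 (adjusted p = 0.0535). Junb (log2 fold change 2.47, adjusted p = 0.0243), Gadd45g (log2 fold change 2.07, adjusted p = 0.0163) and Ier3 (log2 fold change 2.89, adjusted p = 0.0152) lost theirs without NP replicates 2 or 3, and in addition without 16 dpc replicate 2 for Junb and Gadd45g, 16 dpc replicate 3 for Junb and Ier3, and NP replicate 1 for Ier3 (adjusted p up to 0.102, 0.0693 and 0.0810). Myc (log2 fold change 1.42, adjusted p = 0.0377) was called in 1 of the 6 such fits, the one without 16 dpc replicate 1 (adjusted p up to 0.185).

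Of lipoprotein genes Apoc2 and Apoa1 rose and Vldlr and Lipc fell. Of 25 apolipoprotein and lipoprotein genes tested, 2 rose and 2 fell (8% in each direction). Apoc2, the cofactor of lipoprotein lipase, rose from 176, 183 and 152 CPM to 972, 871 and 748 CPM (log2 fold change 2.34 with SE 0.22, adjusted p = 3.24e-05 in edgeR). Apoa1, the main protein of high-density lipoprotein, rose from 4974, 5234 and 4346 CPM to 13979.8, 16806 and 15683 CPM (log2 fold change 1.67 with SE 0.34, adjusted p = 0.00974) and lost its call without NP replicate 3 (adjusted p = 0.0505). Vldlr, the receptor for very-low-density lipoprotein, fell from 23.9, 23.0 and 23.1 CPM to 2.14, 3.67 and 3.74 CPM (log2 fold change −2.87 with SE 0.29, adjusted p = 6.68e-05), and Lipc fell as given above. The NP values of Vldlr were almost equal, and it was at 20.9, 19.1 and 26.1 CPM at 8 dpc.

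Fatty acid oxidation and PPAR-alpha target genes leaned upward. Of 33 tested, 4 rose and 0 fell (12.1% and 0% in edgeR, with 0 lower at an unadjusted p under 0.05 and by DESeq2 and limma voom), 28 had a positive log2 fold change and the median was 0.65. In 23 of the 33 the 3 livers at 16 dpc were all above the NP livers, against 12.1% of all genes. With total counts the median became −0.04, against −0.70 over all genes, and 15 were positive. Cd36, a fatty acid translocase, rose from 141, 92.7 and 177 CPM to 527, 835 and 604 CPM (log2 fold change 2.26 with SE 0.34, adjusted p = 0.00123 in edgeR). Pdk4, the kinase that shuts pyruvate dehydrogenase in fasting, went from 34.4, 21.8 and 52.4 CPM to 159, 1222 and 109.7 CPM (log2 fold change 3.78 with SE 0.79, adjusted p = 0.0113), with replicate 2 far above the others at 16 dpc. Without that library its log2 fold change was 1.89 (adjusted p = 0.0430), and its call was lost without NP replicate 2 (adjusted p = 0.0599). Plin2, a coat protein of lipid droplets, went from 447, 585 and 489.7 CPM to 1815, 4899 and 2215 CPM (log2 fold change 2.55 with SE 0.54, adjusted p = 0.0113), again highest in replicate 2, and was not called without NP replicate 3 or 16 dpc replicate 2 (adjusted p up to 0.0525). Cyp4a31 (log2 fold change 1.75, adjusted p = 0.0479) lost its call without each of the 6 libraries (adjusted p up to 0.126).

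Enzymes that are often read as markers of fat oxidation and synthesis were not DEGs. Cpt1a, which admits fatty acids to mitochondria, was at 283, 771 and 705 CPM in NP livers and 541, 1132 and 796 CPM at 16 dpc (log2 fold change 0.49, adjusted p = 0.628 in edgeR), with a negative value under total counts. Fasn, fatty acid synthase, had a log2 fold change of −0.41 (adjusted p = 0.722). Of 21 lipogenic genes 1 was called in each direction, where 2.85% of all genes were called higher and 2.06% lower. They were Acacb, the mitochondrial acetyl-CoA carboxylase (log2 fold change 1.63, adjusted p = 0.0165), and Mid1ip1, an activator of that enzyme family (log2 fold change −1.87, adjusted p = 0.0146). Acacb was not called without NP replicates 1 or 2 or 16 dpc replicate 2, and Mid1ip1 without NP replicate 3 or 16 dpc replicate 3 (adjusted p up to 0.0796 and 0.0625). None of the 25 genes of cholesterol synthesis and uptake was a DEG in edgeR, DESeq2 or limma voom, and 0 had an unadjusted p under 0.05 (median log2 fold change −0.20).

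Some transporters of bile acids and organic ions fell, among them Slc10a1, Slco1b2 and Abcc3, and most did not pass the test. Of 25 tested, 0 rose and 5 fell (0% and 20% in edgeR, with 1 higher at an unadjusted p under 0.05 and 0 by DESeq2 or limma voom), with a median log2 fold change of −0.23, and with total counts 10 were lower. Slc10a1, the sodium-dependent bile acid importer NTCP, fell from 571, 705 and 741 CPM to 269.7, 289 and 309.5 CPM (log2 fold change −1.22 with SE 0.18, adjusted p = 0.00121 in edgeR). Slco1b2, an organic anion importer, fell from 617, 1257 and 1212 CPM to 346, 357 and 254 CPM (log2 fold change −1.69 with SE 0.31, adjusted p = 0.00492), and Abcc3 fell as given above. These 3 calls held without each library. The calls of Slco1a4 (log2 fold change −1.91, adjusted p = 0.0331) and Slc22a27 (log2 fold change −1.94, adjusted p = 0.0139) were lost without 16 dpc replicates 2 or 3, and that of Slco1a4 also without NP replicates 2 or 3 or 16 dpc replicate 1 (adjusted p up to 0.142 and 0.0645). Abcb11, the canalicular bile salt export pump, was not a DEG (log2 fold change −0.50, adjusted p = 0.588). Of 15 genes of bile acid synthesis edgeR called 1 lower, where 2.06% of all genes were. DESeq2 and limma voom each called 2 lower, and 5 were lower at an unadjusted p under 0.05. The alternatives listed below gave 0 to 7 lower calls. The edgeR call was Cyp7a1, the rate-limiting enzyme. The NP livers held 72.5, 105 and 211 CPM and the livers at 16 dpc 32.2, 5.75 and 7.65 CPM (log2 fold change −3.09 with SE 0.78, adjusted p = 0.0295). The call was lost without NP replicates 2 or 3 or 16 dpc replicates 2 or 3 (adjusted p up to 0.111). AAV8-p21 livers at 16 dpc held 252, 187 and 45.2 CPM of Cyp7a1.

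Several cytochrome P450 genes of families 1 to 3, which oxidize drugs and steroids, fell. Of 43 tested, 2 rose and 10 fell (4.65% and 23.3% in edgeR), with a median log2 fold change of −0.55, and 3 of the 10 falls and 0 of the 2 rises held without each library. DESeq2 called 5 higher and 9 lower and limma voom 6 higher and 10 lower, and total counts gave 3 and 24. Only uniquely mapped reads were counted, so members with close copies are uncertain. Cyp2c37 fell from 1078, 955 and 918 CPM to 209, 115 and 117 CPM (log2 fold change −2.74 with SE 0.35, adjusted p = 0.000407 in edgeR), and Cyp2b13 fell from 181, 223 and 351 CPM to 19.3, 39.9 and 7.30 CPM (log2 fold change −3.51 with SE 0.62, adjusted p = 0.00380). Cyp2a22 was the third fall that held (log2 fold change −1.94, adjusted p = 0.00340). The other 7 falls reached a log2 fold change of −2.33. The abundant Cyp2e1 went from 6710.2, 8841 and 8983 CPM to 4257, 4603 and 2292 CPM (log2 fold change −1.14, adjusted p = 0.0288) and lost its call without NP replicates 2 or 3 or 16 dpc replicate 3, and Cyp3a11 (log2 fold change −1.14, adjusted p = 0.0309) lost it without every library but NP replicate 1 (adjusted p up to 0.0942 and 0.123). The 2 rises were Cyp3a44, from 205, 55.9 and 60.3 CPM to 1289.5, 602 and 680.2 CPM (log2 fold change 3.0, adjusted p = 0.0113), and Cyp2d40 (log2 fold change 2.12, adjusted p = 0.0113), and both calls were lost without NP replicate 2 or NP replicate 3 (adjusted p up to 0.0584 and 0.0606). Cyp1a2 was not a DEG (log2 fold change −0.95, adjusted p = 0.414).

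Conjugating enzymes were called in both directions. Of 50 glutathione transferases, UGTs and sulfotransferases tested, 4 rose and 7 fell (8% and 14% in edgeR, median log2 fold change −0.46). DESeq2 called 4 higher and 8 lower and limma voom 6 in each direction, and total counts gave 3 and 21. Calls of 2 rises and 2 falls held without each library, and the lower calls numbered 4 without NP replicate 1 or NP replicate 3 and 2 without 16 dpc replicate 2 or 16 dpc replicate 3. The sulfotransferases moved in opposite directions. Sult3a2 rose from 22.4, 5.12 and 4.41 CPM to 254, 155 and 154 CPM (log2 fold change 4.14 with SE 0.73, adjusted p = 0.00380 in edgeR) and Sult3a1 from 128, 107 and 76.8 CPM to 591, 328 and 509 CPM (log2 fold change 2.19 with SE 0.39, adjusted p = 0.00383), although these neighbours share sequence. Sult1d1 fell (log2 fold change −1.81, adjusted p = 0.000396). Sult2a3 had 15.2, 3.17 and 2.45 CPM in NP livers and no more than 3 counts in any library at 16 dpc, at least 26.5-fold lower (adjusted p = 0.0134). Its call was lost without 16 dpc replicate 2 or 16 dpc replicate 3 (adjusted p up to 0.0557). Sult2a7 (log2 fold change −4.07, adjusted p = 0.0229) lost its call without those libraries and NP replicates 1 or 3 (adjusted p up to 0.0908). Ugt1a6b, a glucuronosyltransferase of phenols, fell from 9.42, 17.9 and 25.2 CPM to 1.87, 1.92 and 3.38 CPM (log2 fold change −2.87, adjusted p = 0.000749), while Ugt1a5 of the same locus had a log2 fold change of 1.95 (adjusted p = 0.0151) that was not called without NP replicate 2 or 16 dpc replicate 2 (adjusted p up to 0.0694). Gstp1 (log2 fold change 1.40, adjusted p = 0.0250) lost its call without NP replicates 2 or 3 or 16 dpc replicates 1 or 2 (adjusted p up to 0.107).

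Sex-biased liver genes, which growth hormone secretion patterns set through STAT5, moved in both directions in these females. Of 22 female-biased genes 5 rose and 2 fell (22.7% and 9.09%), and of 17 male-biased genes 2 were called higher and 2 lower (11.8% in each direction in edgeR). For the female-biased genes DESeq2 called 8 higher and 2 lower, limma voom 10 and 4 and total counts 6 and 7. NP replicate 1 stood apart in several of them, such as Cyp3a16 at 316 CPM against 26.5 and 26.6 CPM in NP replicates 2 and 3 and A1bg at 1826 against 6.52 and 13.5 CPM, neither a DEG, chosen here after their values were seen. Without that library 8 were called higher and 4 lower. Only 3 were called higher without NP replicate 2, and 1 was called lower without 16 dpc replicate 2 or 16 dpc replicate 3. The female-biased rises were Sult3a2, Prlr, Cyp3a44, Sult3a1 and Cyp17a1. Cyp17a1, a steroid hydroxylase and lyase, went from 103, 161 and 235 CPM to 724, 389 and 539 CPM (log2 fold change 1.73, adjusted p = 0.0215 in edgeR) and was not called without NP replicates 1 or 2 or 16 dpc replicates 1 or 3 (adjusted p up to 0.0819). The female-biased falls were Cyp2b13 and Slc22a27. In the male-biased list the higher calls were Gstp1 and Susd4 (log2 fold change 1.09, adjusted p = 0.0188) and the lower ones Cyp2d9 (log2 fold change −1.12, adjusted p = 0.0124) and Cyp2u1 (log2 fold change −2.33, adjusted p = 0.0489). Each of these 4 calls was lost without at least 1 library. Susd4 was lost without NP replicate 2 or 16 dpc replicate 3, Cyp2d9 without NP replicate 3 or 16 dpc replicates 2 or 3, and Cyp2u1 without every library but 16 dpc replicate 3 (adjusted p up to 0.0926, 0.0637 and 0.154).

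Several enzymes of amino acid catabolism fell. Of 40 genes of the urea cycle and amino acid breakdown tested, 1 rose and 6 fell (2.50% and 15%, median log2 fold change −0.26), and with total counts 0 were higher and 16 lower. Prodh, which opens proline breakdown, fell from 100.4, 143 and 219 CPM to 43.1, 59.5 and 34.4 CPM (log2 fold change −1.75 with SE 0.35, adjusted p = 0.00951 in edgeR). Cth, the cystathionine lyase of cysteine synthesis, fell from 438, 674 and 842 CPM to 230.1, 162 and 280.1 CPM (log2 fold change −1.54 with SE 0.26, adjusted p = 0.00269), and Gls2, liver glutaminase, from 365, 331 and 446 CPM to 183, 133 and 134 CPM (log2 fold change −1.34 with SE 0.27, adjusted p = 0.00842). These 3 calls held without each library. Gpt, alanine aminotransferase (log2 fold change −1.08, adjusted p = 0.00300), kept an adjusted p under 0.05 in all 6 such fits but its log2 fold change was −0.89 without NP replicate 3. Ass1, argininosuccinate synthase, went from 1411, 2148 and 2869 CPM to 1034, 945 and 1083 CPM (log2 fold change −1.07, adjusted p = 0.0192) and Hal, histidine ammonia-lyase, had a log2 fold change of −1.21 (adjusted p = 0.0288). Both lost their calls without NP replicates 2 or 3 or 16 dpc replicate 2, and Ass1 also without 16 dpc replicate 3 and Hal without 16 dpc replicate 1 (adjusted p up to 0.0992 and 0.115). Gldc, of the glycine cleavage system (log2 fold change 1.20, adjusted p = 0.0309), was called in 1 of those fits, without NP replicate 1 (adjusted p up to 0.135). Of 18 amino acid transporter and serine synthesis genes 1 was called in each direction by edgeR, where 2.85% of all genes were called higher and 2.06% lower. The leucine carrier Slc43a1 rose from 5.26, 7.68 and 10.5 to 18.5, 22.7 and 24.7 CPM (log2 fold change 1.49, adjusted p = 0.0105). The aromatic amino acid carrier Slc16a10 fell from 129, 178 and 193 to 50.5, 73.5 and 50.3 CPM (log2 fold change −1.52, adjusted p = 0.00136). DESeq2 called 1 higher and 2 lower and limma voom 1 and 4, and 4 were higher and 5 lower at an unadjusted p under 0.05. The alternatives listed below gave 1 to 8 lower calls.

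Glucose and glycogen enzymes held few DEGs. Of 25 genes of glycolysis and gluconeogenesis 0 rose and 1 fell (0% and 4% in edgeR). At an unadjusted p under 0.05 2 were higher and 5 lower. DESeq2 called 1 higher and 2 lower and limma voom 1 and 3, and the alternatives listed below gave 0 to 8 lower calls. The edgeR call was Pck2, the mitochondrial carboxykinase, which was at 5.19 CPM or lower in every liver (log2 fold change −1.11, adjusted p = 0.0215 in edgeR) and was not called without NP replicates 1 or 2 or 16 dpc replicates 1 or 2 (adjusted p up to 0.0813). Pck1 (log2 fold change −0.38, adjusted p = 0.536) and G6pc (log2 fold change 0.77, adjusted p = 0.248), the rate-setting enzymes of gluconeogenesis, were not DEGs. Of 18 glycogen genes 0 rose and 1 fell (0% and 5.56% in edgeR, with 1 higher at an unadjusted p under 0.05 and 0 by DESeq2 or limma voom), and the fits without 1 library called 0 to 2 of them lower. At an unadjusted p under 0.05 4 were lower, and DESeq2 and limma voom each called 2 lower. The alternatives listed below gave 1 to 9 lower calls. Gys2, glycogen synthase, was at 84.4, 385 and 264 CPM and 164, 358 and 248 CPM (log2 fold change 0.07, adjusted p = 0.964), with a sign that turned under total counts, limma voom and 2 of the 6 fits without 1 library, and Pygl, glycogen phosphorylase, was not a DEG (log2 fold change −0.52, adjusted p = 0.418). Of 10 sugar transporters 1 was called in each direction, where 2.85% of all genes were called higher and 2.06% lower. Slc37a1, a phosphate-linked sugar phosphate antiporter, rose from 1.18, 1.46 and 0.699 CPM to 18.9, 6.33 and 54.9 CPM (log2 fold change 4.56, adjusted p = 0.00126), and Slc2a9, a urate carrier, fell from 33.9, 45.9 and 43.1 to 19.4, 17.4 and 18.2 CPM (log2 fold change −1.16, adjusted p = 0.00133). Slc45a3 was not a DEG (log2 fold change 1.09, adjusted p = 0.105).

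Few cell-cycle genes differed between 16 dpc and NP. None of the 27 mitotic genes was a DEG in edgeR, DESeq2 or limma voom, and 0 had an unadjusted p under 0.05. Mki67, the Ki67 antigen gene of cycling cells, was at 7.48, 1.10 and 2.45 CPM in NP livers and 8.47, 1.58 and 1.51 CPM at 16 dpc (log2 fold change 0.07, adjusted p = 0.975 in edgeR), with replicate 1 the highest in both groups, and at 43.8, 45.4 and 4.11 CPM at 8 dpc. Of 28 genes of DNA replication and the G1/S transition 0 rose and 1 fell in edgeR. At an unadjusted p under 0.05 1 was higher and 4 lower. DESeq2 called 0 higher and 1 lower and limma voom 0 and 2, and the alternatives listed below gave 1 to 11 lower calls. The edgeR call was Ccnd1, cyclin D1, which fell from 111, 60.9 and 56.1 CPM to 21.1, 21.7 and 26.3 CPM (log2 fold change −1.72 with SE 0.34, adjusted p = 0.00809). In AAV8-p21 livers at 16 dpc Ccnd1 was at 163, 278 and 137 CPM. Btg2, an antiproliferative gene induced by p53, rose from 12.5, 8.96 and 9.23 CPM to 27.4, 116 and 97.4 CPM (log2 fold change 2.97, adjusted p = 0.00140). The endogenous Cdkn1a was at 33.7, 5.12 and 3.29 CPM in NP livers and 64.4, 127 and 59.8 CPM at 16 dpc (log2 fold change 2.58, adjusted p = 0.0358), and the call was lost without NP replicates 2 or 3 or 16 dpc replicates 2 or 3 (adjusted p up to 0.132). Cdkn1c, another inhibitor of cyclin-dependent kinases, was below 4 CPM in every liver (log2 fold change −1.21, adjusted p = 0.0412) and was called in 1 of those fits, without NP replicate 3 (adjusted p up to 0.150). Among 20 clock genes none was a DEG in edgeR or DESeq2, 7 had an unadjusted p under 0.05 and limma voom called 10, of which 8 were lower. Arntl was at 17.2, 1.71 and 1.40 CPM in NP livers and 23.3, 10.2 and 19.8 CPM at 16 dpc, and Dbp at 5.68, 86.3 and 58.0 CPM and 1.69, 11.4 and 1.33 CPM, with the livers within a group far apart.

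Interferon-response and antigen presentation genes leaned downward. Of 39 tested, 0 rose and 5 fell (0% and 12.8% in edgeR, with 0 higher at an unadjusted p under 0.05 and by DESeq2 and limma voom), 37 had a negative log2 fold change and the median was −0.92, and in 19 the 3 livers at 16 dpc were all below the NP livers, against 12.5% of all genes. DESeq2 called 10 lower, limma voom 5 and total counts 32, with a median of −1.6 there. The lower calls numbered 2 without NP replicate 1 or 16 dpc replicate 3 and 1 without 16 dpc replicate 2. Usp18, which removes the ubiquitin-like ISG15, fell from 19.4, 11.1 and 11 CPM to 3.21, 3.67 and 3.56 CPM (log2 fold change −1.99 with SE 0.26, adjusted p = 0.000494 in edgeR), and its call held without each library. Ifit1, an antiviral RNA-binding protein gene, had a log2 fold change of −1.99 (adjusted p = 0.0222) and was not called without NP replicate 1 or 16 dpc replicates 2 or 3 (adjusted p up to 0.0865). Ddx58, the RNA sensor RIG-I (log2 fold change −1.30, adjusted p = 0.0103), lost its call without 16 dpc replicate 2 (adjusted p = 0.0505). Dhx58 (log2 fold change −1.04, adjusted p = 0.0320) lost it without NP replicate 1 or any 1 library at 16 dpc, and Gbp2 (log2 fold change −1.55, adjusted p = 0.0320) without every library but 16 dpc replicate 1 (adjusted p up to 0.112 and 0.121). The T and NK cell markers were also low at 16 dpc. Of 8 markers 5 passed the minimum count, which with 0 to 5 counts per library at 16 dpc they could do only through other groups, so the sign of their fold changes is not read. None was a DEG in edgeR, DESeq2 or limma voom and 3 had an unadjusted p under 0.05. The 8 summed to 43 to 64 raw counts per NP library and 8 to 22 at 16 dpc, and the direction of these sums, which are not scaled by TMM, is not read either. Their part in the interferon values was not tested.

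In iron handling the hormone hepcidin was lower and the transferrin receptor and transferrin were higher. Of 21 genes tested, 3 rose and 2 fell (14.3% and 9.52%), and the calls of Trf and Smad7 held without each library. Hamp, hepcidin, the hormone that closes the iron exporter, was at 1250.0, 564 and 747 CPM in NP livers and at 34.9, 299 and 85.9 CPM at 16 dpc (log2 fold change −2.61 with SE 0.71, adjusted p = 0.0425 in edgeR). All 3 livers at 16 dpc were below the NP livers, but they spread more than 8-fold, and the call was kept in 1 of the 6 fits without 1 library, the one without 16 dpc replicate 2 (adjusted p up to 0.144). Tfrc, the transferrin receptor, went from 26.1, 27.2 and 44.8 CPM to 151, 119 and 142 CPM (log2 fold change 2.07 with SE 0.56, adjusted p = 0.0401) and lost its call without each of the 6 libraries (adjusted p up to 0.142). Slc39a14, an importer of zinc and iron (log2 fold change 1.05, adjusted p = 0.0190), was not called without NP replicates 1 or 2 or 16 dpc replicates 2 or 3 (adjusted p up to 0.0817). Smad7, the inhibitor of the pathway that induces hepcidin, fell from 7.20, 7.68 and 10.3 to 3.39, 4.0 and 2.76 CPM (log2 fold change −1.31, adjusted p = 0.00860). Trf, the third rise, is given with the plasma carriers. Of 6 erythroid markers tested 2 were called, both higher at 16 dpc. They were Alas2 (log2 fold change 1.5, adjusted p = 0.0135) and Hbb-bs, a beta-globin gene with a near-identical copy (log2 fold change 1.05, adjusted p = 0.0442). The log2 fold change was 0.93 for Hba-a1 and 0.84 for Hbb-bt, 0.18 for the alpha-globin gene Hba-a2 and −0.93 for Klf1, the erythroid transcription factor. At an unadjusted p under 0.05 4 of the 6 were higher, and limma voom called 4 higher and DESeq2 2. The edgeR calls of Alas2 and Hbb-bs were lost without NP replicate 2 or NP replicate 3 and that of Hbb-bs also without 16 dpc replicates 1 or 3 (adjusted p up to 0.0564 and 0.170), and the 8 erythroid markers summed to 863 to 1473 counts in NP livers and 1330 to 1935 at 16 dpc.

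Most zonated genes of the liver lobule did not pass the test, and those that fell came from both its pericentral and its periportal side. Of 23 pericentral genes 0 rose and 3 fell (0% and 13% in edgeR, median log2 fold change −0.62, 1 higher at an unadjusted p under 0.05 and 0 by DESeq2 or limma voom), and of 19 periportal genes 2 rose and 5 fell (10.5% and 26.3%, median −0.43). With total counts 14 pericentral genes were lower, and 2 periportal genes were higher and 11 lower. The pericentral falls were Cyp2e1, Lect2 and Notum, a secreted inhibitor of Wnt ligands, which fell from 52.1, 41.2 and 27.8 CPM to 16.9, 7.42 and 12 CPM (log2 fold change −1.74, adjusted p = 0.00402 in edgeR). Glul, glutamine synthetase of the last cells before the central vein, was not a DEG (log2 fold change −0.46, adjusted p = 0.152). The periportal falls were Gls2, Ass1, Hal, Etnppl, an enzyme of phosphoethanolamine breakdown (log2 fold change −1.99, adjusted p = 0.0216), and Pigr, the polymeric immunoglobulin receptor (log2 fold change −1.02, adjusted p = 0.0247). The rises were Cyp17a1 and Aldh1b1, a mitochondrial aldehyde dehydrogenase, from 51.3, 34.5 and 52.0 CPM to 204, 142 and 100.3 CPM (log2 fold change 1.70, adjusted p = 0.0141). Of these 7 periportal calls that of Gls2 held without each library. Etnppl and Pigr were not called without NP replicates 2 or 3 or 16 dpc replicate 3, nor Etnppl without 16 dpc replicate 1 and Pigr without 16 dpc replicate 2, and Aldh1b1 was not called without NP replicate 2 (adjusted p up to 0.0840, 0.0950 and 0.0719).

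Ribosomal protein and respiratory chain genes held no DEG. None of 78 ribosomal protein genes and none of 74 nuclear genes of oxidative phosphorylation was called by edgeR, DESeq2 or limma voom, with 3 and 6 at an unadjusted p under 0.05 and median log2 fold changes of 0.07 and −0.24, and with total counts 2 and 22 were lower. Of 27 endoplasmic reticulum chaperone and unfolded protein response genes none was called by edgeR or DESeq2, 9 had an unadjusted p under 0.05, limma voom called 7 higher and edgeR called 4 higher without NP replicate 1. Of these 27, 24 had a positive value and the median was 0.69. P4hb, protein disulfide isomerase, was at 1631, 1146 and 1093 CPM in NP livers and 2058, 2180.1 and 2067 CPM at 16 dpc (log2 fold change 0.70, adjusted p = 0.0811 in edgeR), all higher at 16 dpc. Hspa5, the chaperone BiP, was at 2815, 458 and 458 CPM and 1709, 741 and 3712 CPM (log2 fold change 0.72, adjusted p = 0.651), with 1 high liver in each group. Of 18 hepatocyte transcription factors and nuclear receptors 1 was called, near the 4.91% of all genes. It was Onecut2 (log2 fold change 1.02, adjusted p = 0.0296), and the call was lost without NP replicates 1 or 2 or 16 dpc replicate 3 (adjusted p up to 0.131). Hnf4a, the master regulator of hepatocyte genes, was at 566, 750.2 and 746 CPM and 800.3, 1001 and 763 CPM (log2 fold change 0.31, adjusted p = 0.428), with a negative value under total counts. Of 10 stellate cell and fibroblast markers 1 was called, Lrat, the retinol-esterifying enzyme of stellate cells, from 20.4, 15 and 15.3 to 5.88, 5.42 and 7.83 CPM (log2 fold change −1.41, adjusted p = 0.0279), in 1 of the 6 fits without 1 library, the one without 16 dpc replicate 3 (adjusted p up to 0.106). None of the 5 bile duct and 4 B cell markers tested was called by edgeR, DESeq2 or limma voom, with 2 and 1 at an unadjusted p under 0.05. The 6 bile duct markers listed summed to 326 to 453 raw counts in the NP livers and 101 to 196 at 16 dpc, and the 5 of B cells to 42 to 78 and 60 to 65. With TMM scaling the 5 bile duct markers tested summed to 19.7 to 31.4 CPM and 8.41 to 17.3 CPM. Most of the bile duct sum was Spp1 (287 to 391 and 87 to 157 counts), which was not a DEG (adjusted p = 0.106 in edgeR). The groups did not overlap for Spp1 and Epcam, as for 24.6% of all genes, and overlapped for Sox9, Krt19 and Krt7.

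**Figure D4:**
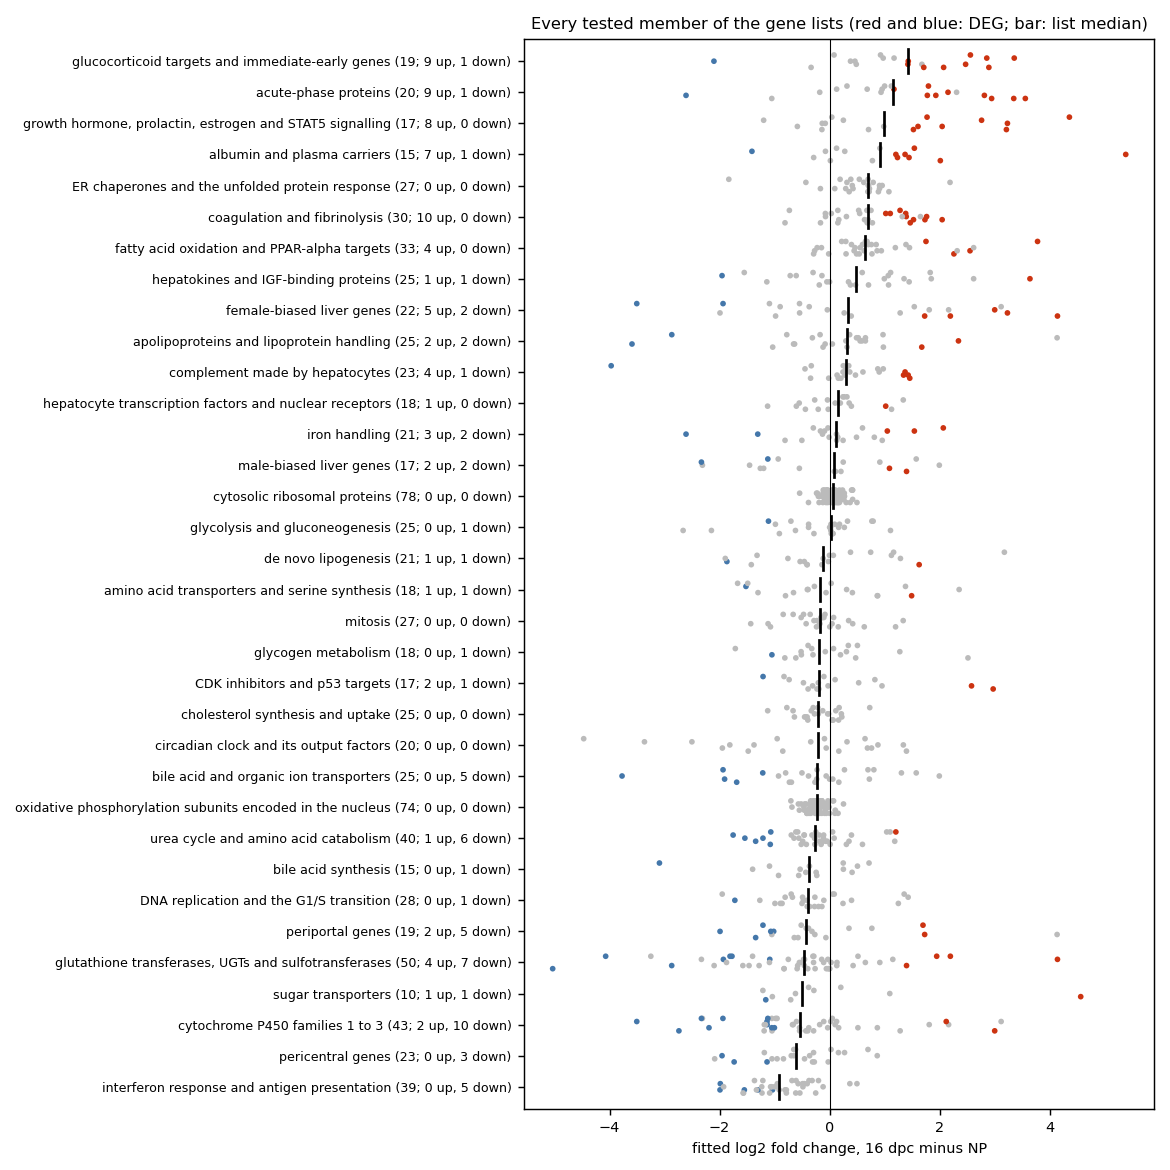
Fitted log2 fold change of 16 dpc minus NP (horizontal axis) for every tested member of 34 gene lists, 1 point per gene, red for higher and blue for lower DEGs, with a black bar at each list median and the numbers tested, higher and lower beside its name. The list medians run from −0.92 for interferon response genes to 1.42 for glucocorticoid targets and immediate-early genes, and the ribosomal and oxidative phosphorylation genes lie close to 0.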

How the data were processed

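Livers of 15 female mice (5 groups of 3) were profiled by RNA-seq from TruSeq Stranded mRNA libraries with single-end reads. Per the labels and the study's methods, the authors used cutadapt 1.14 for trimming and HISAT2 2.1.0 for alignment to mm10, and counted uniquely mapped reads per gene with HTSeq 0.12.4 on a GENCODE annotation. They deposited 1 table of raw counts, which holds 21702 protein-coding genes. The strand setting of the counting is not given in the sources used here, and genes with near-identical copies lose reads to the unique-mapping filter. The count columns were matched to samples by name, except those of the AAV8-p21 livers at 16 dpc, whose numbers differ from the sample titles and which were matched to their group only. The authors tested with DESeq2.

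Here the counts were tested with edgeR 4.0.16 (R 4.3.3): TMM normalization, filterByExpr with a minimum count of 10, which kept 12172 genes, and the quasi-likelihood test in 1 model of the 5 groups with 10 residual degrees of freedom. P-values were adjusted by the Benjamini-Hochberg method over all genes tested, and DEGs had to pass 0.05 in adjusted p and 1 in absolute log2 fold change. Tests are two-sided. With 3 livers a group an exact permutation test cannot go below p = 0.1, so none was run. Each mouse is a replicate. The 6 libraries compared held 12280709 to 17615185 counts, and depth limits the genes near the minimum count. On simulated counts for 16 dpc minus NP with 200 changed genes, the test ran on 12012 genes and recovered 86% of 4-fold and 96% of 8-fold changes with 6 other calls.

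Alternatives were DESeq2 1.42.0, limma voom 3.58.1, other size factors, filters, fits on 6 or 12 libraries, the replicate number as a block, each library left out in turn and, added after seeing the data, scaling by total counts. The members and gene lists were chosen with earlier results of these data known. Genes were named by rule: Dnah11, the 12 largest rises and the 12 largest falls among DEGs at a mean of 5 CPM or more in the higher group whose libraries did not overlap, the 6 that gained and the 6 that lost the most mean CPM, up to 3 risen and 3 fallen DEGs of each list, and defining or study-named genes. Further DEGs of the lists, the serpin genes of chromosome 12 and the genes with printed promoters were named after their values were seen, and some genes that the rule names are not reported here. Gene positions are from GENCODE M21 on GRCm38 and promoter sequences from RefSeq on GRCm38.p6, in which 467 of the 598 DEGs were matched by symbol.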

Additional observations from a re-analysis of the deposited data

How the results depend on the processing

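Both the number of genes called and their split by direction moved. Of 16 dpc against NP, limma voom called 888 genes, of which 398 were lower, and edgeR on the 6 libraries alone called 382, of which 146 were lower, in place of 598 and 251. Scaling by total counts gave 3009 (184 higher and 2825 lower), 6.11% higher in place of 58%. Of 16 dpc against 8 dpc, limma voom called 1029 (468 higher and 561 lower), edgeR on 6 libraries 316 (160 and 156) and total counts 3174 (153 and 3021), in place of 658 (308 and 350), with 4.82% higher under total counts in place of 46.8%. Leaving out 1 library gave 338 to 604 calls (193 to 353 higher, 139 to 257 lower) against NP and 248 to 1039 (140 to 415 higher, 108 to 624 lower) against 8 dpc. The higher share against 8 dpc was 56.2% and 56.5% without 8 dpc replicates 1 and 2, 50.6%, 55.2% and 60% without 16 dpc replicates 1, 2 and 3, and 39.9% without 8 dpc replicate 3. DESeq2 called 792 genes on 15 libraries and 738 on 6, other size factors 597, no filter 617, at least 10 counts in every library 466, the 20 most abundant genes left out 587 and the adjusted p alone 794. Except as the total-count scaling itself divides by other totals, the cause was not tested.

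The replicate numbers did not pair the livers. Deviations from the group means correlated between same-numbered NP and 16 dpc livers at r = 0.451, 0.298 and −0.04 across genes, and the replicate block gave 549 calls in 12 libraries against 584 in the same libraries without it.

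Among the named genes refitted under each alternative, signs turned only in genes that were not DEGs. Total counts lower the median of all genes from −0.03 to −0.70, so a sign that turns under them is set by that shift for a gene with a small positive value. The log2 fold change of Gys2 was −0.41 in limma voom and −0.64 with total counts (−0.34 to 0.56 without 1 library). The log2 fold change of Mki67 was −0.00362 in the replicate block and −0.60 with total counts (−1.23 to 1.13). The log2 fold change of Hnf4a was −0.38 and the log2 fold change of Cpt1a −0.21 with total counts. Without 1 library the log2 fold change of Hspa5 ranged from −0.0206 to 2.17.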

Other observations

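The serpin genes of chromosome 12, chosen as a group after the values of Serpina6 were seen, lie between 103614786 and 104414329 on GRCm38 and hold carriers of hormones and inhibitors of proteases. Of the 16 tested, 7 rose and 0 fell in edgeR's quasi-likelihood test, against 2.85% and 2.06% of all genes, and all 16 had a positive log2 fold change, as did 47.5% of all genes. Both counts include Serpina6, by which the group was chosen. Serpina16 had 0 counts in every NP and 8 dpc library, so it passed the minimum count only through the 16 dpc livers and could only be higher. The counts are therefore no test of the group. The calls of Serpina6, Serpina11, Serpina1b and Serpina1e held without each library. That of Serpina3n was lost without 16 dpc replicate 3, that of Serpina16 without NP replicate 2 or NP replicate 3 and that of Serpina3k without each of the 6 libraries (adjusted p up to 0.0593, 0.0579 and 0.134). Under total counts 5 of the 16 were called and 14 were positive. Serpina1e, an alpha-1-antitrypsin gene, had a mean of 398 CPM in the NP livers and 4496 CPM at 16 dpc (log2 fold change 3.50, adjusted p = 0.00145). Its neighbours Serpina1b (1.23, adjusted p = 0.00942) and Serpina1d (0.93, adjusted p = 0.0295) differed less, the latter under the fold threshold, and Serpina1a (0.76, adjusted p = 0.193) and Serpina1c (0.49, adjusted p = 0.495) did not pass the test. These genes are close copies, so reads could be split between them. Serpina11 (1.69, adjusted p = 0.00269) and Serpina3k (1.16, adjusted p = 0.0476) rose, while Serpina10 (1.32, adjusted p = 0.0517) and Serpina12, also known as vaspin (3.05, adjusted p = 0.0525), had values just past the threshold of the adjusted p.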
